A study of Homo sapiens with 14 samples.

Results

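The genes described here are the sterol regulatory element binding proteins (SREBPs), their membrane partners, and the enzymes of cholesterol and fatty acid synthesis that they switch on. The 33 members were chosen by gene name for their known place in the pathway, with earlier results of these data known. Their shares are thus set beside those of all genes as a description. Of the 33, 32 were rows of each of the authors' deposited tables used here, out of 11261 genes after siRNA and 11835 genes after the deletion. CYP51A1, the lanosterol demethylase, was listed in neither arm and is counted below by its promoter only. Expression was measured in teloHAEC, an immortalised line of endothelial cells from the human aorta. In 1 arm, 4 libraries of cells reverse transfected with siRNA against CALCRL, the calcitonin receptor-like receptor, were compared with 4 libraries of cells given scrambled siRNA, 24 hours later. In the other arm, 3 libraries of cells electroporated with Cas9 and guides on both sides of an enhancer at the CALCRL locus were compared with 3 libraries of cells given Cas9 and a control guide against HPRT, 2 days after delivery. The cells of both groups were thus edited in bulk, and the share of edited alleles is not given in the sources used here. Between these groups the authors' deposited table gives HPRT1, at which the control guide is aimed, a log2 fold change of -0.09 (SE 0.50). The tables hold a mean, a fold change and a test per gene and no value for a single library, so no spread over single samples can be shown.

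Cells sense sterol in the membrane of the endoplasmic reticulum. When sterol is scarce, SCAP carries the SREBP precursor to the Golgi, where proteases release the transcription factor. When sterol is plentiful, the INSIG proteins hold SCAP back. SREBP-2 mainly drives the enzymes from acetyl-CoA to cholesterol and SREBP-1 mainly drives those of fatty acid synthesis and desaturation. INSIG1 and SREBF1 are targets of this system as well as parts of it, so their transcripts are commonly read together with those of the enzymes.

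CALCRL, the targeted gene, had a log2 fold change of -1.56 (SE 0.17) under siRNA and -1.47 (SE 0.43) with the deletion, values of the authors' deposited tables. Of 10 endothelial markers, 9 were listed in each table, among them CDH5, KDR and ERG. Of 9 markers of smooth muscle or fibroblasts, ACTA2 alone was listed, and none of 4 blood markers was. The deletion table also listed the hepatocyte genes ALB and APOA1, with mean normalised counts of 51.5 and 17.8. The endothelial genes CDH5 (-1.44, SE 0.35) and KDR (-1.05, SE 0.31) were called lower with the deletion in the authors' deposited table (adjusted p-values 0.00142 and 0.00966), and EGFL7 was lower under siRNA (-0.46, SE 0.11). CDH5 and KDR were 2 of the 9 listed markers (22.2%, against 8.44% of all genes lower). After the deletion 4 of the 9 were above 0 and 5 below, with EGFL7 at 0.05 (SE 0.22) in the authors' deposited table. Under siRNA EGFL7 alone of the 9 was called (11.1%, against 2.42% lower), 3 were above 0 and 6 below, and CDH5 was at 0.01 (SE 0.11). The part of these changes in the results below was not tested.

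Sequences of 2 kinds bear on the results. The first is a word of 7 bases, GTAACAA, found in the 3' UTR of many genes that were lower under the siRNA. It had been picked from these same siRNA values, so its match to the siRNA fold changes is a description. Among the listed genes of the pathway, 3 of 32 carried it (9.38%), against 10.3% of the 10639 listed genes with an annotated 3' UTR. Their sites, from GENCODE release 29 on GRCh38, are shown 5' to 3' on the transcript, with the word in capitals.
SC5D (chr11:121308537-121308565, plus strand): aaatgtgtgttGTAACAAatatattgcaa
ACLY (chr17:41866915-41866943, minus strand): taaactatataGTAACAAtgaaggcatac
ELOVL6 (chr4:110047531-110047559, minus strand): gtcacatcagaGTAACAAagctcctggag
The word of SC5D begins 147 bases before the end of the transcript and that of ACLY 25 bases before it, while that of ELOVL6 lies 1703 bases before it.

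The second kind is the promoter, where SREBPs act beside other factors, NF-Y among them. RefSeq promoters of 300 bases (GRCh38.p14) were found for 29 of the 33 genes, among them CYP51A1, which has no fold change here. A CCAAT box, the core of NF-Y sites, was present on either strand (CCAAT, or ATTGG as its reverse) in at least 1 promoter of 21 of the 29 genes, and in 34.6% of all 35116 promoters, or 39.7% of genes. The box was present in 3 of 4 genes that were higher after the deletion, 6 of 7 that were lower and 12 of 17 that did not pass the test. It was thus present in most genes of each group. The sterol regulatory element, searched in 1 exact form, occurred in 16 of all promoters (0.0456%), and of the 29 genes in that of SREBF2 alone. The GC box GGGCGG was present in 27 of the 29 genes, and in 48.3% of all genes with a promoter in the table. Shown are the promoters of the lowest and highest genes of the pathway in the deletion arm, SREBF1 and MVK. That of SCD, a classic SREBP-1 target, is shown as well, with CCAAT boxes of either strand in capitals throughout.
SREBF1 (chr17:17836937-17837236, minus strand): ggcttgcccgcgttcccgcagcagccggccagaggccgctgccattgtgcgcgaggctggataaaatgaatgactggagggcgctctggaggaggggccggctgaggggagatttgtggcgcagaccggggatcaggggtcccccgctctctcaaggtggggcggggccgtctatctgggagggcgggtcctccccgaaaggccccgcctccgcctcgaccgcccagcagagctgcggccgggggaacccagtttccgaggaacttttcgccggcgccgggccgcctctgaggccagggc
SCD (chr10:100346983-100347282, plus strand): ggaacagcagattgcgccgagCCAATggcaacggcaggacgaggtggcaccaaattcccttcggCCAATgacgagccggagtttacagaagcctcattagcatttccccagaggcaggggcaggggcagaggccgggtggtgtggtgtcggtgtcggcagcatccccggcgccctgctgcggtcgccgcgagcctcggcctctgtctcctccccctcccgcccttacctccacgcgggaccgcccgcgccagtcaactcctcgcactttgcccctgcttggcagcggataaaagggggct
MVK (chr12:109573544-109573843, plus strand): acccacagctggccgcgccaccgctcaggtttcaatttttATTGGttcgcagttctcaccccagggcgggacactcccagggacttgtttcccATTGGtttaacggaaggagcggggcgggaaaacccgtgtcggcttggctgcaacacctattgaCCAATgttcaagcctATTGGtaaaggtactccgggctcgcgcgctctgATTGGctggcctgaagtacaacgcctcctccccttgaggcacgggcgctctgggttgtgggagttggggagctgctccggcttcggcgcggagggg
SREBF1 held no CCAAT box in this window, SCD held 2 and MVK held 5. Of the other genes that were higher after the deletion, NSDHL held 5, MVD 3 and PMVK none. The promoters of IDI1, which was lower, held from 0 to 3, and that of MSMO1, which did not pass the test, held 4. A trend of box number with fold change was not tested.

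In the siRNA arm 1 gene of the pathway was called. SC5D, the sterol C5-desaturase of the last steps before cholesterol, was the only listed gene of the pathway past the threshold of an adjusted p-value of 0.05. The authors' deposited table gave it a log2 fold change of -1.22 (SE 0.23, adjusted p-value 1.84e-05), or 43.1% of the scrambled control (95% interval 31.5% to 58.9%). Its Wald statistic, the fold change over its standard error, was the 62nd lowest of the table. Thus 1 of 32 genes was called (3.12%, against 3.46% of all genes tested), and it was lower (against 2.42%), while none was higher (against 1.05%). Unadjusted p-values under 0.05 were held by 4 of the 32 (12.5%, against 12% of the table), so both shares were near those of all genes. SC5D was still past the threshold with the GC trend described below removed (-1.19, adjusted p-value 3.2e-05, where 3.3% of all genes were called and 2.26% were lower). With the t distribution on 6 degrees of freedom in place of the normal one, its adjusted p-value was 0.266.

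The carriers of the word were all below 0. Nearest below the threshold came ACLY, which makes cytosolic acetyl-CoA from citrate, with -0.22 (SE 0.07) and an adjusted p-value of 0.0748 in the authors' deposited table, or 85.8% of the control (95% interval 77.6% to 94.9%). ELOVL6, which elongates palmitate, was at -0.21 (SE 0.13, adjusted p-value 0.608), from the authors' deposited table. Of the 29 listed genes without the word, 13 were below 0, against 49.4% of all genes. Among all 1092 carriers in the table, 69.1% were below 0, with a median of -0.12 against 0.01 in the other 9547 genes, and 14.2% were past the threshold and lower. The plot of siRNA fold changes by the word shows these values.

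**Figure D1:**
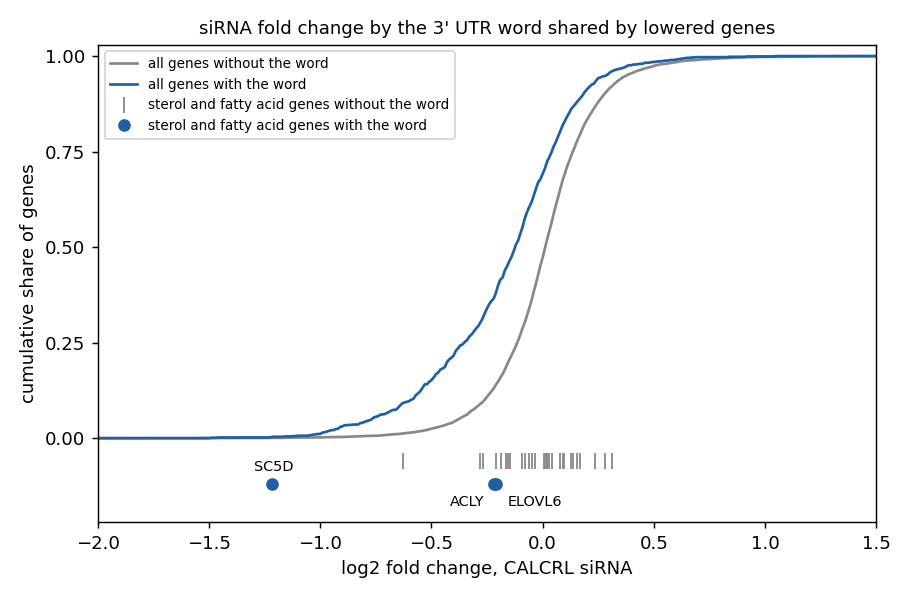
Cumulative share of all listed genes (y axis) by log2 fold change under CALCRL siRNA (x axis), for genes with and without the 3' UTR word, over points for the sterol and fatty acid genes. SC5D at -1.22 stands apart from the other genes of the pathway, and ACLY and ELOVL6 lie close together at -0.22 and -0.21.

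The sensors and factors did not pass the test under siRNA. INSIG1 was the second nearest to the threshold, with 0.28 (SE 0.12) and an adjusted p-value of 0.257 in the authors' deposited table. SREBF2, the gene of SREBP-2, was at 0.31 (SE 0.17), SCAP at 0.17 (SE 0.12), INSIG2 at -0.06 (SE 0.25) and SREBF1 at 0.02 (SE 0.28), from the authors' deposited table. Intervals bound what could be missed: in the siRNA arm SREBF1 lay between 69.3% and 148% of the control, a wide range, and FDPS between 89.3% and 113%. The 7 genes of the mevalonate and isoprenoid steps ran from -0.18 for IDI1 to 0.08 for HMGCS1. The 10 listed genes of the squalene and sterol steps, SC5D aside, ran from -0.63 for HSD17B7 (SE 0.42) to 0.23 for SQLE (SE 0.13), the squalene epoxidase, per the authors' deposited table. FASN, the fatty acid synthase, was at -0.28 (SE 0.14, adjusted p-value 0.411) and ACACA, the acetyl-CoA carboxylase before it, at -0.27 (SE 0.14, adjusted p-value 0.471), as the authors' deposited table gives them. The median over the 32 genes was -0.01, and over all genes 0.00.

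After the enhancer deletion genes of the pathway were called in both directions. The authors' deposited table called 12 of the 32 listed genes (37.5%, against 15.8% of all genes tested), 8 lower (25%, against 8.44%) and 4 higher (12.5%, against 7.4%). The genes had been chosen with earlier results of these data known, so these shares are a description. With the trend on GC content removed, 6 were lower and 1 was higher. The median standard error of the 32 genes was 0.32, against 0.41 over the table. A log2 fold change of at least 1 in size was held by 14 of the 32, against 24.4% of the table. The part of either in the share called was not tested. Of the 32, 17 were below 0 (against 49.7% of the table) and 18 had an unadjusted p-value under 0.05 (56.2%, against 29.7%). The median fold change was -0.29, against 0.00 over all genes. None of the 12 calls held with the t distribution on 4 degrees of freedom, nor with the statistics divided by their robust SD of 1.88, and under either setting no gene of the whole table was called. The plot of fold changes and intervals gives each gene in both arms.

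**Figure D2:**
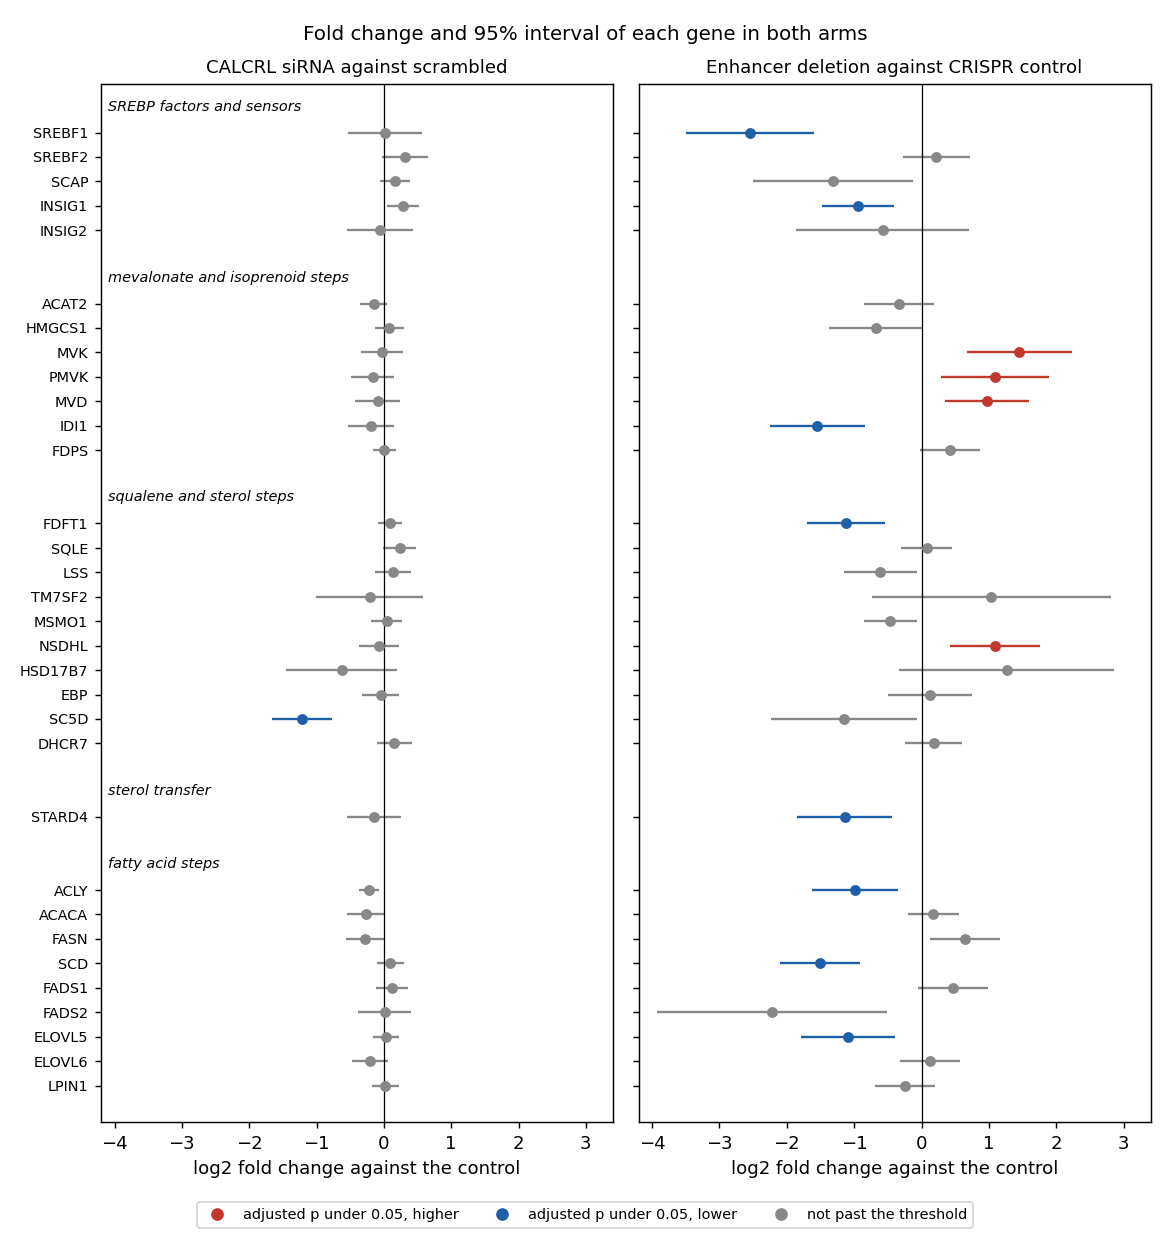
Log2 fold change against the control (x axis) with its 95% interval for each of the 32 listed genes (y axis), grouped by role, under siRNA (left) and after the deletion (right). Intervals are wider on the right, where SREBF1 is lowest at -2.55 and MVK highest at 1.45, while on the left SC5D alone is past the threshold.

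Among the factors and sensors, SREBF1, the gene of SREBP-1, was the lowest of all the listed genes of the pathway after the deletion. The authors' deposited table gave it -2.55 (SE 0.48, adjusted p-value 2.49e-05), or 17.1% of the CRISPR control (95% interval 8.88% to 33.1%). Its Wald statistic was the 67th lowest of the table. INSIG1, which holds SCAP in the endoplasmic reticulum and is itself an SREBP target, fell to 52.1% (-0.94, SE 0.27, adjusted p-value 0.00913, from the authors' deposited table). SCAP itself was at -1.31 (SE 0.60, adjusted p-value 0.120) and INSIG2 at -0.58 (SE 0.65), neither past the threshold, per the authors' deposited table. SREBF2 was at 0.22 (SE 0.25, adjusted p-value 0.608), with an interval from 82.2% to 164% of the control, per the authors' deposited table. Thus 2 of the 5 factors and sensors were lower (40%, against 8.44% of all genes), and SREBF2 was not among them.

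Of the 7 genes of the mevalonate and isoprenoid steps, 3 were higher after the deletion (42.9%, against 7.4% of all genes). Only 1 was lower (14.3%, against 8.44%). MVK, PMVK and MVD, the kinases and the decarboxylase that turn mevalonate into isopentenyl diphosphate one after another, all rose after the deletion. MVK was at 1.45 (SE 0.40, adjusted p-value 0.00573), PMVK at 1.09 (SE 0.41, adjusted p-value 0.0471) and MVD at 0.98 (SE 0.32, adjusted p-value 0.0214), as the authors' deposited table gives them. These values corresponded to 273%, 213% and 197% of the control. All 3 calls ended with the trend of fold change on GC content, described below, removed (adjusted p-values 0.0877, 0.265 and 0.678), where MVD was at 0.24. IDI1, the isomerase that acts on their product, fell to 34.3% of the control (95% interval 20.9% to 56.1%, log2 fold change -1.54, SE 0.36, adjusted p-value 0.00102, from the authors' deposited table). The other 3 genes did not pass the test: HMGCS1, the first enzyme committed to mevalonate, was at -0.68 (SE 0.35, adjusted p-value 0.177), ACAT2, which makes acetoacetyl-CoA, at -0.33 (SE 0.27) and FDPS, which makes farnesyl diphosphate, at 0.43 (SE 0.23, adjusted p-value 0.198), from the authors' deposited table.

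In the squalene and sterol steps, 1 gene fell and 1 rose out of 10. These shares of 10% were near those of all genes (8.44% lower and 7.4% higher). FDFT1, the squalene synthase, fell to 45.8% of the control (-1.13, SE 0.30, adjusted p-value 0.00391, from the authors' deposited table). NSDHL, which takes part in removing the C4 methyl groups of sterols, rose to 213% (1.09, SE 0.34, adjusted p-value 0.0161, from the authors' deposited table). MSMO1, the oxidase of the same demethylation, was at -0.46 (SE 0.20, adjusted p-value 0.0895), and LSS, which closes the sterol rings, at -0.61 (SE 0.28, adjusted p-value 0.117), from the authors' deposited table. SC5D, the gene called under siRNA, was at -1.15 (SE 0.55, adjusted p-value 0.138) here and did not pass the test, per the authors' deposited table. SQLE was at 0.08 (SE 0.19), DHCR7, the last reductase, at 0.18 (SE 0.22) and EBP, the sterol isomerase, at 0.13 (SE 0.32), from the authors' deposited table. HSD17B7 and TM7SF2 had low mean normalised counts of 22.8 and 29.4 in this arm. Their fold changes of 1.26 (SE 0.81) and 1.04 (SE 0.90) did not pass the test, per the authors' deposited table. STARD4, which carries cholesterol between membranes, fell to 45.3% (-1.14, SE 0.36, adjusted p-value 0.0161, from the authors' deposited table).

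The fatty acid steps gave 3 lower genes of 9 (33.3%, against 8.44% of all genes) and none higher (against 7.4%). SCD, the stearoyl-CoA desaturase and a classic SREBP-1 target, fell to 35.2% of the control (95% interval 23.4% to 52.9%, log2 fold change -1.51, SE 0.30, adjusted p-value 6.89e-05, from the authors' deposited table). ELOVL5, an elongase of polyunsaturated fatty acids, was at -1.09 (SE 0.36, adjusted p-value 0.0227) and ACLY at -0.98 (SE 0.33, adjusted p-value 0.0245), from the authors' deposited table. Nearest below the threshold were FADS2, the delta-6 desaturase, at -2.22 (SE 0.87, adjusted p-value 0.0606) and FASN at 0.65 (SE 0.26, adjusted p-value 0.0745), from the authors' deposited table. FADS1, the delta-5 desaturase whose gene overlaps that of FADS2, was at 0.47 (SE 0.26, adjusted p-value 0.215), from the authors' deposited table. ACACA (0.18, SE 0.20), ELOVL6 (0.13, SE 0.23) and LPIN1 (-0.24, SE 0.23), a phosphatidate phosphatase, did not pass the test, per the authors' deposited table.

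The precision of some of these values stood apart. In the deletion arm the standard error of FADS2 was 3.36 times the trend at its mean count, and that of SCAP 1.63 times. In the siRNA arm the standard errors of FADS2 and SREBF1 were 1.80 and 1.60 times that trend. They were the 2 of 32 listed genes above 1.5 times, and 496 of the 10891 genes tested in both arms were above it too. Of these 496, 83.9% were below 0 after the deletion (against 49.7% of all genes), with a median of -1.46. SREBF1 and FADS2 are the lowest listed genes of the pathway after the deletion and belong to that set. Its part in their values was not tested.

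The direction of change after the deletion moved with the base composition of the transcript's 3' end, where the libraries were read. The last 500 bases had a median GC content of 57.2% in the 4 higher genes, 36.3% in the 8 lower genes and 45.6% in the 20 others. NSDHL at 42.2% was the exception among the higher genes, and SREBF1 at 55.6% among the lower ones. Across the 32 genes, the Spearman correlation of fold change with GC content was 0.45, and 0.31 over 11631 genes of the table. These are descriptions across genes, which share libraries and are not replicates. After the trend over all genes was removed, 7 of the 32 genes were past the threshold (21.9%, against 12.1% of all genes), 6 lower (against 6.82%) and 1 higher (against 5.27%). Of the 12 called as deposited, 5 remained: SREBF1 at -2.93 (adjusted p-value 6.14e-07), IDI1 at -1.48 (0.00184), SCD at -1.32 (0.00075), FDFT1 at -0.92 (0.0231) and NSDHL at 1.17 (0.0108). MVK, PMVK and MVD were then at 0.97, 0.70 and 0.24 (adjusted p-values 0.0877, 0.265 and 0.678). INSIG1 was at -0.63, STARD4 at -0.83, ACLY at -0.79 and ELOVL5 at -0.86, with adjusted p-values from 0.0880 to 0.106. SCAP at -1.71 (0.0418) and FADS2 at -2.70 (0.0238) passed the threshold only with the trend removed. Of the 4 genes called higher, NSDHL thus kept its call with this trend removed, and of the 8 called lower, SREBF1, SCD, IDI1 and FDFT1 did.

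**Figure D3:**
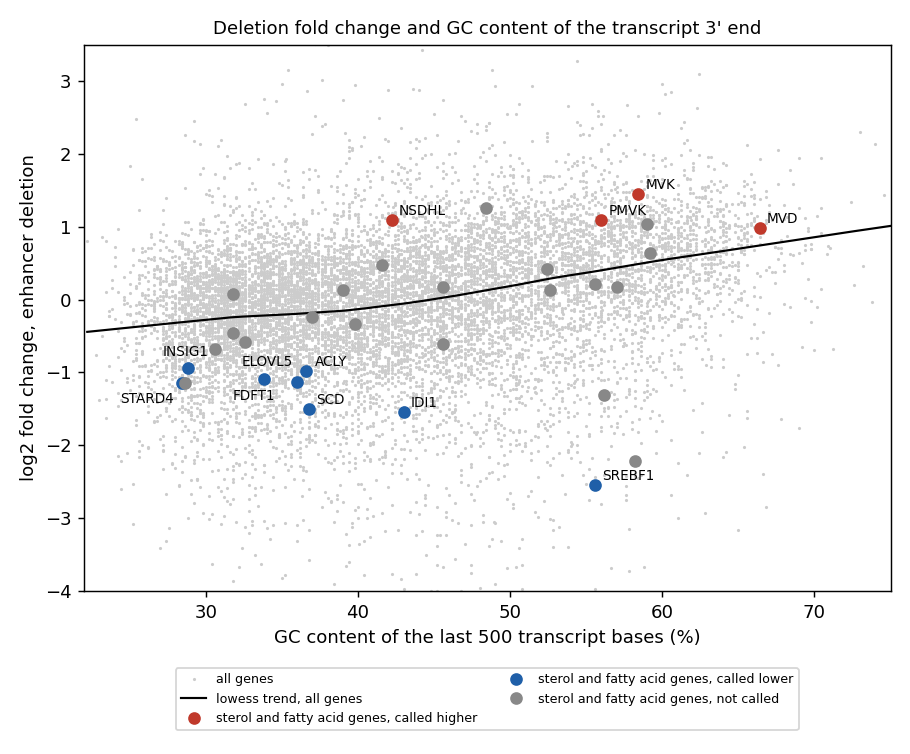
Log2 fold change after the enhancer deletion (y axis) by GC content of the last 500 transcript bases (x axis), for all genes (small points, with their lowess trend) and the sterol and fatty acid genes (large points). Genes beyond the axes are not drawn. MVK, PMVK and MVD lie at high GC content above 0, 7 of the 8 lower genes lie at or below 43%, and SREBF1 lies at 55.6% far below the trend.

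The arms were then compared gene by gene. The arms share no libraries but differ in delivery, time and control, which cannot be told apart from the target of each. The log2 fold changes differed, at an adjusted p-value under 0.05, for 11 of the 32 genes and for 13.7% of the 10891 genes compared. None of these differences held with the t distribution on 10 degrees of freedom or with the statistics divided by their robust SD. The siRNA value was the higher one for 6 of the 11, and for 786 of the 1493 genes that differed over the table. So 6 of the 32 genes differed this way, against 7.22% of all genes compared. They were SREBF1 by 2.56 (SE 0.56, adjusted p-value 0.00046), SCD by 1.61 (SE 0.32, 9.25e-05), IDI1 by 1.36 (SE 0.40, 0.0128), INSIG1 by 1.22 (SE 0.30, 0.00212), FDFT1 by 1.22 (SE 0.31, 0.00338) and ELOVL5 by 1.12 (SE 0.37, 0.0263). The siRNA value was the lower one for 5 of the 11, and for 707 of the 1493. So 5 of the 32 genes differed that way, against 6.49% of all genes compared. These were MVK, PMVK, NSDHL, MVD and FASN, with differences from -1.48 (MVK, SE 0.43, adjusted p-value 0.0106) to -0.93 (FASN, SE 0.30, 0.0231). FASN was past the threshold in neither arm alone. With the GC trend removed from both arms, 8 genes differed (25%, against 11.2% of all genes), 7 with the higher siRNA value (against 6.15%) and 1 with the lower (against 5.04%), which was NSDHL (-1.25, adjusted p-value 0.0150). STARD4 and ACLY, called after the deletion, did not differ between the arms at the threshold (differences of 1.00, SE 0.41, and 0.76, SE 0.33, with adjusted p-values of 0.0814 and 0.104). SC5D had nearly the same value in both arms, a difference of -0.07 with a standard error of 0.60. Over the 32 genes, 11 had the same sign in both arms, and 51.1% of all genes did.

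**Figure D4:**
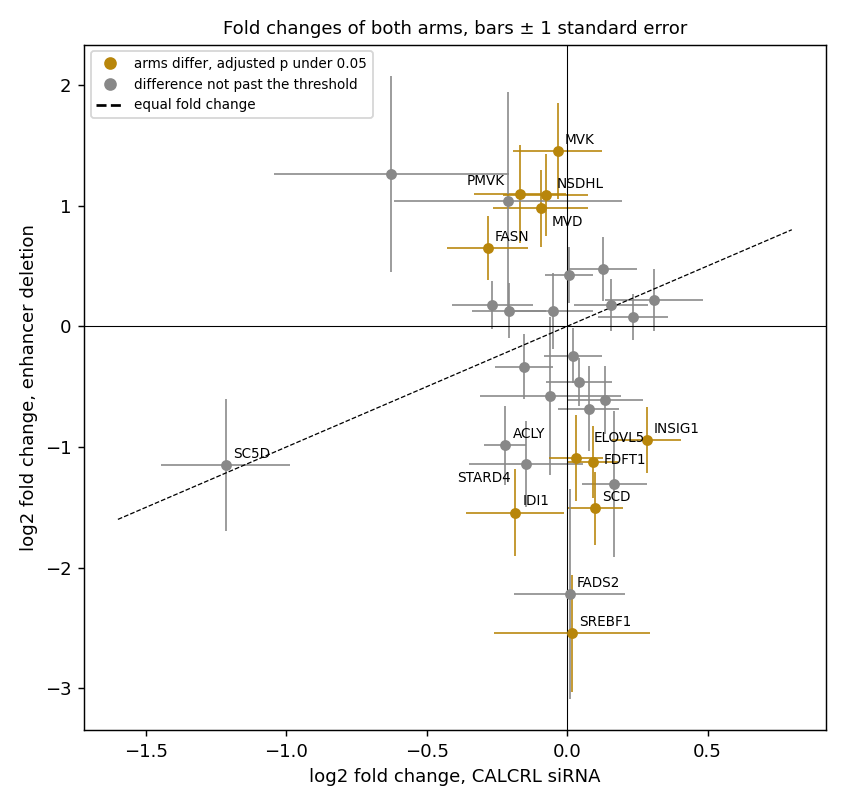
Log2 fold change after the deletion (y axis) against that under siRNA (x axis) for the 32 listed genes, with bars of 1 standard error and a dashed line of equal values. The genes whose arms differed lie between siRNA values of -0.28 and 0.28, from MVK at 1.45 to SREBF1 at -2.55, and SC5D lies close to the line at -1.22 and -1.15.

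Genes around the pathway were counted in 4 lists, to be read against the shares of all genes called: 1.05% higher and 2.42% lower under siRNA, and 7.4% higher and 8.44% lower after the deletion. These lists too were chosen with earlier results of these data known. Of 11 genes of SREBP processing and turnover, 1 was higher and 1 lower under siRNA in the authors' deposited table: MBTPS1, the site-1 protease that makes the first cut in SREBP, at 0.43 (SE 0.12, adjusted p-value 0.00897), and FBXW7, the ubiquitin ligase subunit that binds nuclear SREBP, at -0.47 (SE 0.13, adjusted p-value 0.0116). After the deletion none of the list was called higher, and among the lower ones were SYVN1 (-2.45, SE 0.71), a ubiquitin ligase of the endoplasmic reticulum, SEC23A (-1.29, SE 0.38), a coat subunit of the vesicles that carry cargo to the Golgi, and ERLIN1 (-1.15, SE 0.36), a membrane protein of the endoplasmic reticulum, per the authors' deposited table. With the GC trend removed SYVN1 alone of these 3 stayed past the threshold (adjusted p-value 0.00722). None of 11 genes of the isoprenoid branches was called in either arm, with medians of -0.07 under siRNA and -0.48 after the deletion.

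Of 14 listed genes of sterol uptake, transport and export, OSBP, an oxysterol binding protein, was lower under siRNA (-0.56, SE 0.15, adjusted p-value 0.00725, from the authors' deposited table). After the deletion 3 of the 14 were lower (21.4%, against 8.44% of all genes): NPC1, which releases cholesterol from lysosomes, at -1.62 (SE 0.40, adjusted p-value 0.00211), NR1H2, the liver X receptor beta that induces SREBF1, at -1.52 (SE 0.56, adjusted p-value 0.0458) and VLDLR, a lipoprotein receptor, at -0.90 (SE 0.32, adjusted p-value 0.0397), from the authors' deposited table. NPC1 and NR1H2 kept the threshold with the GC trend removed (adjusted p-values 0.00376 and 0.00468), and VLDLR did not (0.139). At that setting OSBP (0.94, adjusted p-value 0.0384) and FBXW7 (1.02, adjusted p-value 0.0146), both lower under siRNA, were past the threshold and higher after the deletion. As deposited they were not (adjusted p-values 0.0855 and 0.0546 in the authors' deposited table). Of 19 listed genes of fatty acid activation, elongation and lipid assembly, ACSL3 was higher (0.28, SE 0.08) and ACSL4 lower (-0.40, SE 0.08, adjusted p-value 9.39e-05) under siRNA, both of them fatty acyl-CoA synthetases, per the authors' deposited table. After the deletion MID1IP1, which activates acetyl-CoA carboxylase, was at -2.77 (SE 0.64, adjusted p-value 0.000813) and SCD5, a second desaturase, at -1.26 (SE 0.31, adjusted p-value 0.00218), while AGPAT5 (0.65, SE 0.22) and PCYT2 (1.31, SE 0.46), enzymes of phospholipid synthesis, were higher, per the authors' deposited table. Of these, PCYT2 lost the threshold with the GC trend removed (adjusted p-value 0.132). All 3 genes of these lists that were called lower under siRNA, FBXW7, OSBP and ACSL4, carry the word GTAACAA in the 3' UTR, as SC5D does. So do 58.3% of all 266 genes with an annotated 3' UTR that were called lower under siRNA, the values the word was picked from.

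The values of 7 genes are uncertain, since the authors' strand setting and treatment of shared reads are not given in the sources used here. The last 500 bases of ACAT2 overlap TCP1 on the opposite strand, those of HMGCS1, FDPS and LSS overlap annotated antisense RNAs, and GENCODE lists 8 pseudogenes named after FDPS, 2 after HSD17B7 and 1 each after SCD and FADS2, with which reads can be shared. SCD was the only one of the 7 called in either arm as deposited. The labels say that Cas9 was delivered to each replicate of the deletion arm, and do not say whether siRNA libraries came from separate cultures, so the p-values measure the spread between these libraries, which may be technical.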

How the data were processed

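Members and gene lists were chosen with earlier results of these data known. RNA of 14 libraries was sequenced at the 3' end (QuantSeq FWD), per the labels' protocols. FeatureCounts and DESeq2 were used by the authors, per the names of their files. Each deposited table lists, with decimal commas, the mean normalised count of a gene, its log2 fold change and standard error, the Wald score (fold change over standard error) and the raw and Benjamini-Hochberg adjusted p-value. The submitters' processing notes name hg19 and edgeR 3.24.3 without a role. The aligner, annotation and filters are not given in the sources used here, and library depth is unknown. No count test was run, since no value per library was held.

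Computed here (Python 3.11.15, statsmodels 0.14.6) were 95% normal intervals, percent of control, and a z test of the difference between arms, adjusted over 10891 genes. The z test was also run on normal fold changes simulated with the deposited standard errors. Such a run cannot show whether those errors are large enough for these data. The GC trend was a lowess fit (span 0.3) of fold change on the GC content of a transcript's last 500 bases. For each gene 1 GENCODE 29 transcript was used, a coding one where present, and among those the one with the longest 3' UTR. Genes were matched by ID, and ACACA by symbol, for 11100 siRNA and 11631 deletion genes. The transcript coordinates are GRCh38 and may differ from the authors' annotation. Standard errors were compared with a trend of standard error on mean count. Every member was described, with full values for those called in either arm or differing between arms and for the 2 nearest below the threshold in each arm. Other genes named are CALCRL and called genes of the pathway and marker lists, of which 1 is not reported here.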

Additional observations from a re-analysis of the deposited data

Results flagged for a closer look

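A test of the difference between the siRNA and the deletion effect put 11 of the 32 listed genes past an adjusted p-value of 0.05 (34.4%, against 13.7% of all genes). With the t distribution on 10 degrees of freedom, or the statistics divided by their robust SD, 0 genes differed. The siRNA log2 fold change minus the deletion log2 fold change was 2.56 for SREBF1, 1.61 for SCD, 1.36 for IDI1, 1.22 for INSIG1, 1.22 for FDFT1 and 1.12 for ELOVL5. It was -1.48 for MVK, -1.26 for PMVK (SE 0.44, adjusted p-value 0.0356), -1.17 for NSDHL (SE 0.37, 0.0212), -1.07 for MVD (SE 0.36, 0.0290) and -0.93 for FASN. With the GC trend removed, MVK, PMVK, MVD, FASN and ELOVL5 no longer passed (adjusted p-values 0.101, 0.179, 0.578, 0.369 and 0.0874), while SCAP (1.86, 0.0307) and FADS2 (2.69, 0.0314) did.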

How the results depend on the processing

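No paired analysis was possible because the files summarise each group without its libraries. Count models, their normalisations and filters, and leaving out each replicate were not run either. Centring on the median of all genes and a minimum mean normalised count of 20 (which drops HSD17B7 and TM7SF2 from the siRNA table) left every count of members as deposited: 1 lower under siRNA, 12 after the deletion (8 lower, 4 higher) and 11 differing between the arms (6 with the higher siRNA value, 5 with the lower). A Student t reference with 6, 4 or 10 degrees of freedom left 0 members called under siRNA, 0 after the deletion and 0 differing, in each direction. It left 5 genes of the whole siRNA table, 0 of the deletion table and 0 of the differences. Dividing the statistics by their robust SD left 1 member under siRNA, 0 after the deletion and 0 differing, beside 262, 0 and 0 of all genes. The deletion calls thus rest on a normal reference and on the spread the authors' model assumed. As deposited, 18 of the 32 members had an unadjusted p-value under 0.05 in the deletion table (56.2%, against 29.7% of all genes). At an adjusted p-value under 0.1, 2 members were lower under siRNA, 15 were called after the deletion and 15 differed, 10 of them with the higher siRNA value (6.25%, 46.9% and 46.9%, against 4.59%, 22.9% and 21% of all genes). With the GC trend removed, 7 members were called after the deletion, 1 of them higher, and 1 differed with the lower siRNA value. No called value changed sign under these settings.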
